A study of Homo sapiens with 3 samples.

Results

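The subject of these measurements was a set of 6 long noncoding RNAs, MALAT1, NEAT1, GAS5, TUG1, SNHG1 and KCNQ1OT1, in human embryonic kidney HEK-293T cells. The members were all probe sets of the array whose platform annotation lists one of these symbols, which gave 38 of 54675 probe sets (6 of 21357 listed symbols). MALAT1 had 12, NEAT1 9, TUG1 6, GAS5 and KCNQ1OT1 5 each, and SNHG1 1. Of the 38, 14 are listed together with small RNAs encoded within the same transcript, which are all 9 of NEAT1 (with MIR612), 4 of GAS5 and the 1 of SNHG1 (each with 8 small nucleolar RNAs). The RNAs were picked by name, but with an earlier result of these arrays in view, a higher MALAT1 signal at 24 h. The differences between 24 h and 48 h are therefore given as a description, without p-values for single members. Which members were called in the fit over all probe sets is stated, and nothing is read from it.

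RNA levels were measured in 3 unstressed cultures of HEK-293T, an established line that, according to the sample records, carries a temperature-sensitive SV40 T-antigen gene. No cells were transfected or heat shocked for these arrays, and the study used them to see which screened genes the cell line expresses. The first culture was harvested 24 h after seeding 1000000 cells, and the other cultures 48 h after seeding 750000 cells (high-seeded) or 375000 cells (low-seeded). Each total RNA was hybridised to 1 Affymetrix Human Genome U133 Plus 2.0 array, with RNA integrity numbers of 9.5 at 24 h, 10.0 in the high-seeded and 9.6 in the low-seeded 48 h culture. Harvest time, seeding number and any batch cannot be told apart at 24 h, and whether the cultures came from separate passages is not given in the sources used here. Nuclear and cytoplasmic RNA were not separated, so the arrays say nothing of where in the cell these RNAs were.

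The deposited values are MAS5 signals on a linear scale, whose levels cannot be set against each other between probe sets. Above background means a signal that passed a threshold on each of the 3 arrays. The threshold was the 95th percentile over 383 probe sets of sensory receptors and other tissue-restricted genes, at 99.4 for the 24 h, 127 for the high-seeded and 113 for the low-seeded 48 h array. Of 9 genes on the array that are known from HEK-293T cells, 6 were above background, such as VIM, at 14203 at 24 h, 12975 in the high- and 12855 in the low-seeded 48 h culture, while PAX2, LHX1 and EPCAM were not. Of 12 marker genes of other cells (blood, vessel, liver, glial, heart muscle and connective tissue), 1 was above background, the collagen gene COL1A1 of connective tissue, at 542 at 24 h, 534 in the high- and 429 in the low-seeded 48 h culture.

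As background, MALAT1 is a nuclear RNA that gathers at nuclear speckles, the stores of splicing factors, and its 3′ end is cut by RNase P, which releases a tRNA-like small RNA and leaves a triple helix in place of a poly(A) tail. NEAT1 is the scaffold of paraspeckles, nuclear bodies built with the proteins NONO, SFPQ and PSPC1, and exists as a short polyadenylated and a long form. GAS5 and SNHG1 are hosts of small nucleolar RNAs, which guide the methylation of ribosomal RNA and are cut from the introns, and their spliced RNAs are exported and removed by nonsense-mediated decay. TUG1 is a spliced RNA with nuclear and cytoplasmic functions. KCNQ1OT1 is transcribed from the paternal chromosome against the direction of KCNQ1 and keeps neighbouring imprinted genes silent. In the RefSeq annotation of GRCh38.p14, MALAT1 and NEAT1 lie side by side on chromosome 11 next to the protein-coding gene FRMD8, SNHG1 and KCNQ1OT1 lie elsewhere on chromosome 11, GAS5 on chromosome 1 and TUG1 on chromosome 22. The annotated gene spans range from 3908 bases for SNHG1 and 5145 for GAS5 over 8779 for MALAT1, 10131 for TUG1 and 22743 for NEAT1 to 91667 bases for KCNQ1OT1. That annotation lists TUG1 as protein coding.

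The sequences around the annotated starts of MALAT1, TUG1, GAS5 and SNHG1 are shown for their start site context, and those of NEAT1 and KCNQ1OT1 were not analysed here. Of the 5 stretches shown, only that of the second MALAT1 start has TATAAA, the TATA box. Each stretch holds 70 bases before and 20 bases from the start on, 5′ to 3′, from RefSeq (GRCh38.p14), and capitals mark, on either strand, the TATA box TATAAA, the letters CCAAT or the GC box GGGCGG. They cover chr11:65497668-65497757 (+) and chr11:65498975-65499064 (+) for MALAT1, chr22:30969195-30969284 (+) for TUG1, chr1:173869026-173869115 (-) for GAS5 and chr11:62855866-62855955 (-) for SNHG1.
MALAT1, first start: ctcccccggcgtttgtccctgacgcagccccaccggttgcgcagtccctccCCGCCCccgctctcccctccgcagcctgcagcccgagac
MALAT1, second start: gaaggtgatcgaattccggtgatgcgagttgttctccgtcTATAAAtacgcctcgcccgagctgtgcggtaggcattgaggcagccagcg
TUG1: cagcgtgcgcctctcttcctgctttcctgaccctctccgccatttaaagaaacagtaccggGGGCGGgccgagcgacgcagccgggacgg
GAS5: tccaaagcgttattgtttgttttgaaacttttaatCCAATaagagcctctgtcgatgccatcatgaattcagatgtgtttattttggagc
SNHG1: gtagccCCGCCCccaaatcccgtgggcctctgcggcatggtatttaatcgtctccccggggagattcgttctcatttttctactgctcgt

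The TATAAA before the second MALAT1 start begins 30 bases upstream of it. Over the whole windows of 300 bases, TATAAA occurred in 2 of the 5 member windows (in SNHG1 on the other strand, within the transcribed part), against 11.5% of all 35116 windows. CCAAT occurred in 2 (TUG1 and GAS5), against 34.6%, and GGGCGG in 3, against 45% of all windows. The heat shock element core GAANNTTC, which HSF1 binds, was searched because the study is about HSF1. It occurred in the GAS5 window and in 6.77% of all windows. Such matches are letters in a window, and no binding was measured.

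At the threshold used, GAS5, SNHG1 and TUG1 were above background on most of their probe sets and KCNQ1OT1 on none. MALAT1 and NEAT1 were so on a minority of theirs, near the share of all probe sets. How well RNAs without a poly(A) tail were labelled was not tested here, so these counts do not rank the amounts of the RNAs. Of the 38 probe sets, 17 were above background on all 3 arrays, 6 on 1 or 2 arrays and 15 on none, against 37.2% of all probe sets above background on all 3. The 17 were all 5 of GAS5, the 1 of SNHG1, 4 of 6 of TUG1, 4 of 12 of MALAT1, 3 of 9 of NEAT1 and none of 5 of KCNQ1OT1. With the 99th percentile as threshold 9 remained, which were 4 of GAS5, 3 of TUG1, 1 each of MALAT1 and SNHG1 and none of NEAT1. The count of NEAT1 depended on the setting, as 5 of its 9 passed with the 90th percentile. It was 6 of 9 when only 2 of 3 arrays were required. MALAT1 had 5 and 4 of 12 in these settings.

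**Figure D1:**
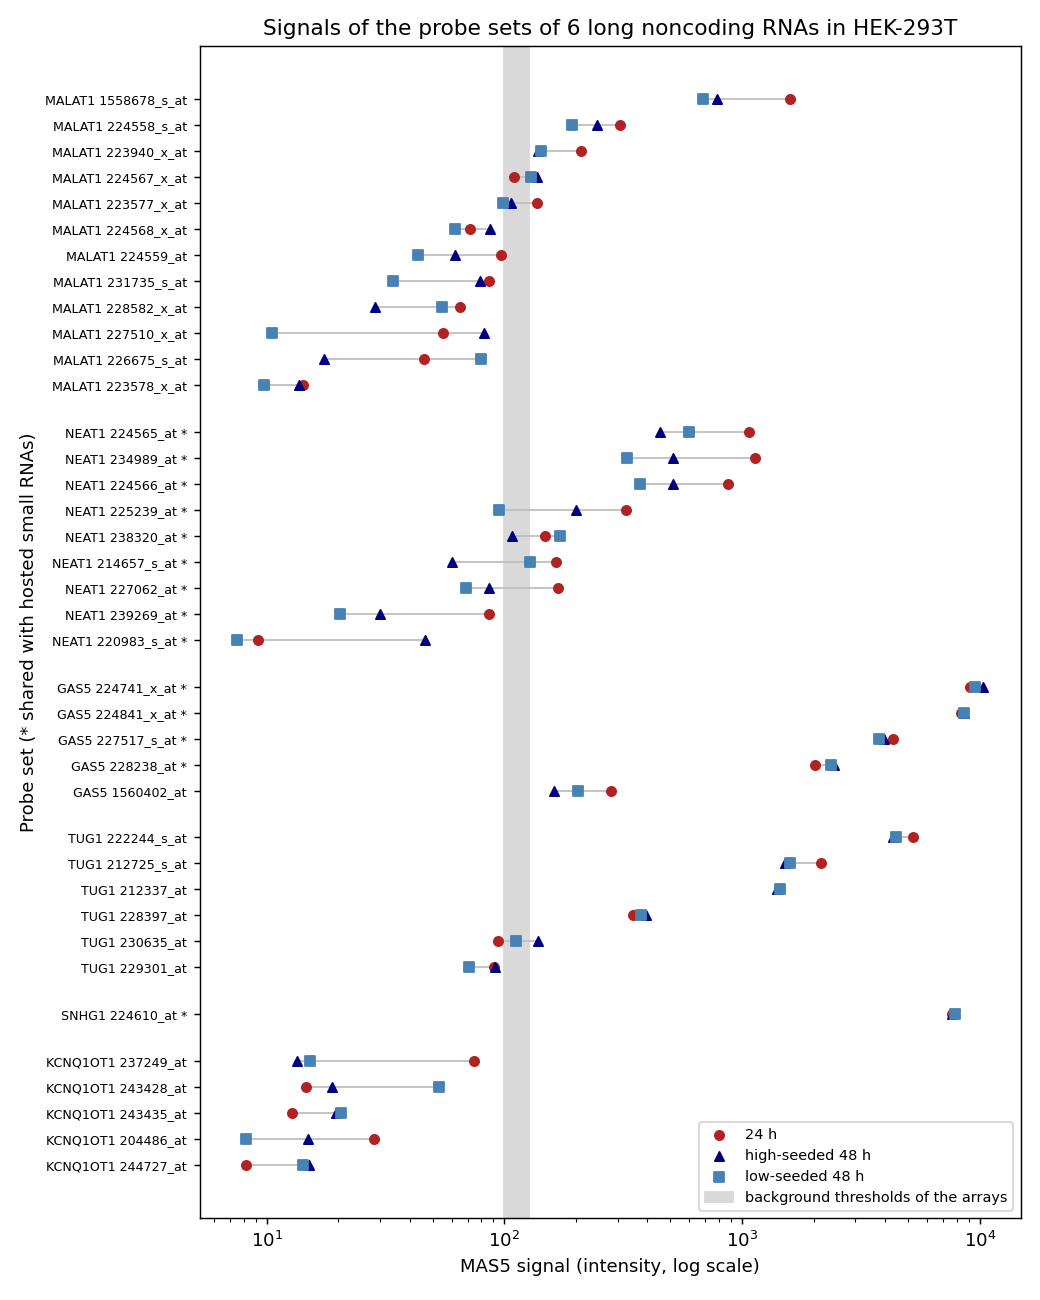
MAS5 signal (horizontal axis, log scale) of each of the 38 probe sets (vertical axis, grouped by RNA) on the 3 arrays; symbols are single arrays, grey lines join the lowest and highest, asterisks mark probe sets shared with small RNAs, and the band covers the thresholds from 99.4 to 127. The KCNQ1OT1 probe sets all lie under the band, and the 3 brightest NEAT1 probe sets and the brightest MALAT1 probe set have the 24 h culture far to the right of both 48 h cultures.

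MALAT1 was brightest on the probe set 1558678_s_at, with a signal of 1596 at 24 h, against 787 in the high-seeded and 684 in the low-seeded 48 h culture. The 48 h cultures lay close together and the 24 h culture at 2.17 times their mean. On the log2(signal + 20.4) scale, on which changes of low signals are understated, the difference was 1.10 (standard error 0.16). The next probe set, 224558_s_at, gave 306 at 24 h, against 246 in the high- and 193 in the low-seeded 48 h culture (log2 difference 0.45, standard error 0.33). For 223940_x_at the signals were 210.3 at 24 h and 139 in the high- and 143 in the low-seeded 48 h culture (0.52, standard error 0.40). Both of these differences were in the same direction as that of the brightest probe set and smaller. The fourth probe set above background, 224567_x_at, went the other way, with 109.8 at 24 h, against 137 in the high- and 129 in the low-seeded 48 h culture (log2 difference -0.24, standard error 0.45). The differences of the 4 ranged from -0.24 to 1.10, and those of the 3 dimmer probe sets have standard errors of 0.33 to 0.45.

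The other 8 MALAT1 probe sets were mostly under the thresholds. The only one with a signal above background was 223577_x_at, at 138 at 24 h and 106 in the high- and 98.7 in the low-seeded 48 h culture, where only the 24 h signal passed, so that the 24 h signal was at least 1.15 times the 48 h level (against the thresholds of the 48 h arrays). The remaining 7 had signals between 9.73 and 96.6 and were above background on no array. They give no order of the cultures. Of the 12, 11 are marked _s_at or _x_at, the types whose probes may match other transcripts too, and the only other one, 224559_at, stayed under the threshold with 96.6 at 24 h, against 61.7 in the high- and 43.3 in the low-seeded 48 h culture.

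NEAT1, the neighbour of MALAT1, had its highest signal at 24 h on 4 of the 5 probe sets that entered the fit, where 35.1% of all tested had it so. These 5 measure 1 RNA on the same 3 arrays, and the set was chosen with this contrast in view. Nothing is read from that count. The brightest, 224565_at, gave 1066 at 24 h, against 451 in the high-seeded and 596 in the low-seeded 48 h culture (log2 difference 1.01, standard error 0.21). The probe set 234989_at gave 1138, against 513 in the high- and 328 in the low-seeded 48 h culture, with the largest difference of the 20 member probe sets in the fit, at 1.43 (standard error 0.24). The third, 224566_at, gave 869.5 at 24 h, against 512 in the high- and 374 in the low-seeded 48 h culture (0.96, standard error 0.23). On all 3 the 24 h signal lay above both 48 h signals, and the order of the 48 h cultures was not the same on all of them. Further down, 225239_at gave 326 at 24 h, 201 in the high-seeded and 94.6 in the low-seeded 48 h culture (1.12, standard error 0.42), the last one under its threshold. The exception was 238320_at, with 148 at 24 h between 107 in the high- and 171 in the low-seeded 48 h culture (0.11, standard error 0.44).

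The other 4 NEAT1 probe sets were too low to enter the fit. The signal of 214657_s_at was 165 at 24 h, against 60.1 in the high- and 128 in the low-seeded 48 h culture, and that of 227062_at was 168.8 at 24 h, against 86.3 in the high- and 68.7 in the low-seeded 48 h culture, where both 48 h signals were under the thresholds and the 24 h signal was at least 1.41 times that level. The signal of 239269_at was 86.1 at 24 h, against 30.0 in the high- and 20.4 in the low-seeded 48 h culture, and that of 220983_s_at was 9.24, against 46.2 in the high- and 7.50 in the low-seeded 48 h culture. The last 2 were under the thresholds on every array and give no order of the cultures. All 9 are listed for both NEAT1 and MIR612, the miRNA encoded within it, which the array cannot separate. Which of the probe sets lie in the short and which in the long form is not given in the sources used here.

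GAS5 signals differed little between the cultures on 4 of its 5 probe sets. Its brightest probe set, 224741_x_at, gave 9096 at 24 h, against 10341 in the high-seeded and 9523 in the low-seeded 48 h culture (log2 difference -0.13, standard error 0.10). The probe set 224841_x_at gave 8328, against 8608 in the high- and 8603 in the low-seeded 48 h culture (-0.05, standard error 0.09). For 227517_s_at the signals were 4307 at 24 h and 3957 in the high- and 3769 in the low-seeded 48 h culture (0.16, standard error 0.10). These 3 differences were small and not in one direction. The fourth probe set shared with the small nucleolar RNAs, 228238_at, gave 2027 at 24 h, against 2431 in the high- and 2365 in the low-seeded 48 h culture (-0.24, standard error 0.11). The fifth, 1560402_at, which is the only one listed for GAS5 alone, gave 282 at 24 h, against 162 in the high- and 204 in the low-seeded 48 h culture (0.58, standard error 0.36), the lowest signals and the largest difference of the 5.

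SNHG1 had 1 probe set, 224610_at, shared with 8 small nucleolar RNAs, and its signals lay close together in the 3 cultures. It gave 7634 at 24 h, against 7670 in the high-seeded and 7888 in the low-seeded 48 h culture, a log2 difference of -0.03 (standard error 0.09). This difference and that of GAS5 224841_x_at (-0.05) were smaller than their standard errors. With the arrays scaled to equal medians, which put the median of all tested probe sets at 0.06, they were 0.03 and 0.01.

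The probe sets of TUG1 did not give one direction. Its brightest probe set, 222244_s_at, had 5249 at 24 h, against 4299 in the high-seeded and 4457 in the low-seeded 48 h culture (log2 difference 0.26, standard error 0.10). The probe set 212725_s_at gave 2145, against 1517 in the high- and 1589 in the low-seeded 48 h culture (0.46, standard error 0.13). In contrast, 212337_at gave 1426, against 1403 in the high- and 1438 in the low-seeded 48 h culture, and the log2 difference was 0.01 (standard error 0.13), which turned in sign with quantile normalization (-0.0038). The first pair, both of the _s_at kind, thus had the 24 h culture above both others, while the third was level, with an SD of 17.8 over the 3 arrays around a mean of 1423. Lower in signal, 228397_at gave 349 at 24 h, against 394 in the high- and 377 in the low-seeded 48 h culture (-0.14, standard error 0.26), and 230635_at gave 94.4, against 139 in the high- and 111 in the low-seeded 48 h culture (-0.34, standard error 0.47). The sixth, 229301_at, was under the thresholds with 90.3 at 24 h and 91.6 in the high- and 71.3 in the low-seeded 48 h culture.

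KCNQ1OT1 had signals between 8.16 and 74.4 on its 5 probe sets and was above background on no array. The highest was the 24 h signal of 237249_at, at 74.4, against 13.4 in the high-seeded and 15.2 in the low-seeded 48 h culture. No fold is given for it because all 3 signals are under the thresholds. The RNA was not detectable on these arrays, which does not show that it was absent. KCNQ1, the gene it runs against, was not above background either (75.1, against 63.4 in the high- and 60.8 in the low-seeded 48 h culture), and neither was CDKN1C, a growth inhibitor encoded next to it (172 at 24 h, against 103 in the high- and 148 in the low-seeded 48 h culture), whose high-seeded signal was under the threshold.

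**Figure D2:**
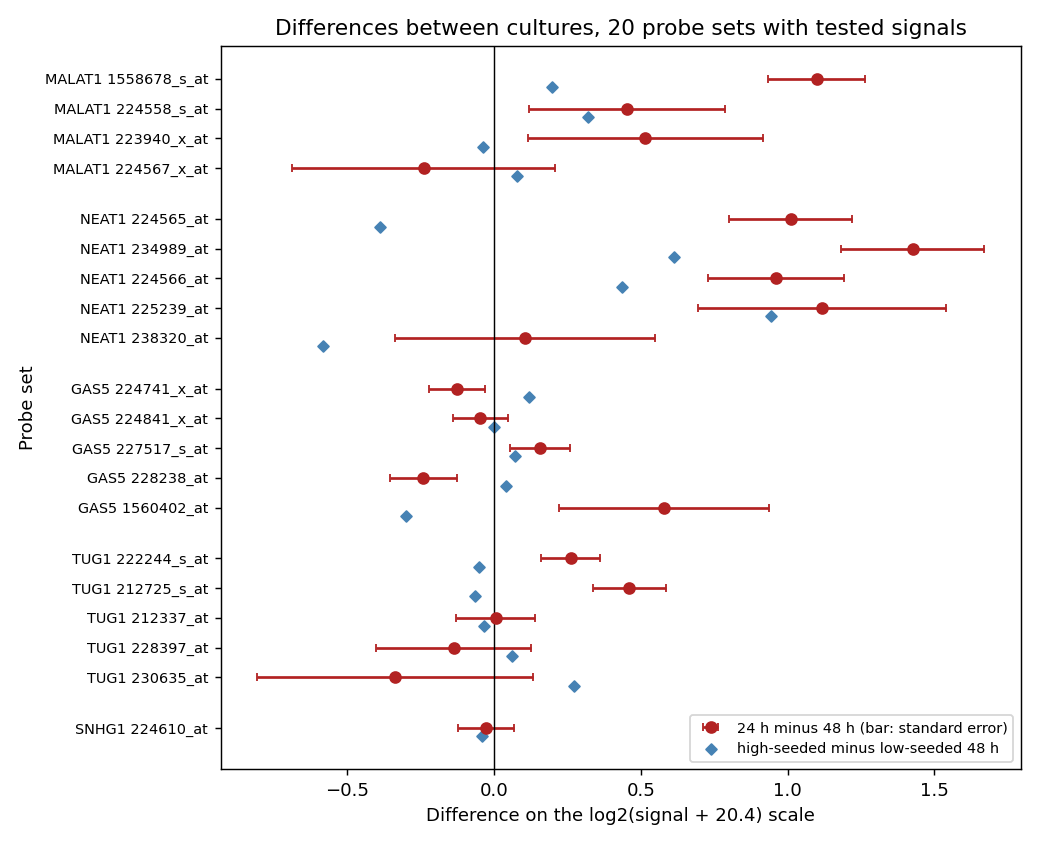
Difference between cultures (horizontal axis, log2 scale) of the 20 member probe sets whose signals entered the fit (vertical axis, brightest first within each RNA). Circles are 24 h minus 48 h with standard errors, and diamonds are the high-seeded minus the low-seeded 48 h culture, 1 array each; 4 of 5 NEAT1 and 1 of 4 MALAT1 circles lie near or above 1, and those of GAS5, TUG1 and SNHG1 lie between -0.34 and 0.58.

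Across the 6 RNAs, 20 of the 38 probe sets had a mean signal high enough to enter the fit, and none of these passed it only through the 24 h array. Of the 20, 11 had the 24 h signal above both 48 h signals, against 35.1% of the 22134 probe sets tested, and 7 had it below both, against 35.4%. A log2 difference above 1 was seen in 4 of the 20 (3 of NEAT1, among them 225239_at, and 1 of MALAT1), against 0.357% of all tested. In the limma fit over all tested probe sets, 2 of the 20 were called at an adjusted p under 0.05, MALAT1 1558678_s_at and NEAT1 234989_at, against 0.298% of all tested. Since the set was proposed with this contrast in view, nothing is read from these counts. The median log2 difference was 1.01 for the 5 probe sets of NEAT1, 0.48 for the 4 of MALAT1, 0.01 for the 5 of TUG1, -0.03 for SNHG1 and -0.05 for the 5 of GAS5, and it was 0.00 (0.0047) over all tested.

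The lone 24 h array was assumed to vary like the 48 h pair, and the calls use a spread pooled over probe sets of like signal. When the arrays were scaled to equal medians, 9 probe sets were called instead of 66 (4 higher and 5 lower at 24 h, in place of 51 and 15), among them NEAT1 234989_at. MALAT1 1558678_s_at was not called there, although its log2 difference was 1.15, and with no trend of the variance on the mean in limma none was called (1349 at an unadjusted p under 0.05).

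The 48 h cultures, which differ in the number of cells seeded, were compared with 1 array each and no test. None of the 20 member probe sets differed by more than 2-fold between the high-seeded and the low-seeded culture, against 1.52% of all tested. The bright RNAs were close, with log2 differences of 0.12 to 0.00 on the 2 brightest GAS5 probe sets, -0.05 and -0.07 on those of TUG1 and -0.04 on SNHG1. The probe sets of NEAT1 differed more and in both directions, with 0.94 for 225239_at, 0.61 for 234989_at and 0.43 for 224566_at, but -0.39 for the brightest, 224565_at, and -0.58 for 238320_at. The values for 225239_at and 238320_at each rest on 1 signal under its threshold (94.6 in the low-seeded and 107 in the high-seeded culture), and the 3 probe sets above background on all arrays ranged from -0.39 to 0.61. Leaving out the low-seeded culture gave a median NEAT1 difference of 0.74 (range 0.40 to 1.20) between 24 h and 48 h, and leaving out the high-seeded culture gave 1.18 (-0.18 to 1.73). The 1.73 is that of 234989_at and the -0.18 that of 238320_at.

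**Figure D3:**
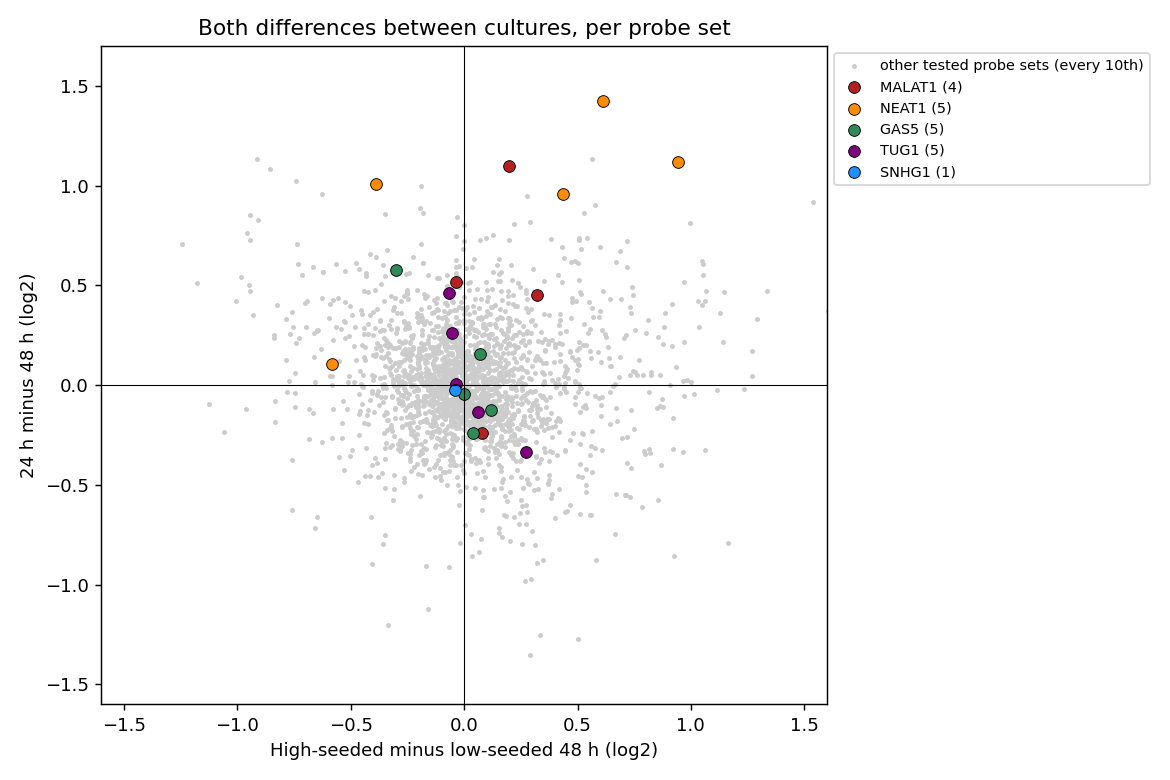
Difference of 24 h minus 48 h (vertical axis, log2) against that of the high-seeded minus the low-seeded 48 h culture (horizontal axis, log2); coloured points are the 20 member probe sets by RNA and grey points every 10th of the other tested probe sets, within the limits of the axes. NEAT1 spreads from -0.58 to 0.94 on the horizontal axis, both ends resting on 1 signal under its threshold, while the points of GAS5, TUG1 and SNHG1 lie within -0.30 to 0.27 there.

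None of the 6 neighbouring protein-coding genes that could be tested was called in the same limma fit, and none had an unadjusted p under 0.05. SMTN, on one side of TUG1, was too low to enter the fit. It gave 148 at 24 h, against 47.4 in the high- and 72.8 in the low-seeded 48 h culture, both under their thresholds. FRMD8, next to NEAT1, gave 1073 at 24 h, against 819 in the high-seeded and 914 in the low-seeded 48 h culture (log2 difference 0.30, limma adjusted p = 0.601). WDR74 and SLC3A2, on either side of SNHG1, gave log2 differences of 0.03 and 0.09 (adjusted p = 0.973 and 0.901 in limma), MORC2, next to TUG1, -0.05 (adjusted p = 0.953), and ZBTB37, which overlaps GAS5 in the annotation, -0.00 (adjusted p = 0.9996).

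Genes that bind, process or degrade these RNAs were taken from lists, each gene with the brightest probe set listed for it alone. Of the 29 genes of paraspeckle proteins tested, limma called none (3 at an unadjusted p under 0.05), 12 were higher and 17 lower at 24 h, and the median log2 difference was -0.03. NONO gave 22655 at 24 h, against 23494 in the high- and 22810 in the low-seeded 48 h culture, and SFPQ 14569, against 14962 in the high- and 16285 in the low-seeded 48 h culture. At the ends of the list were TAF15, an RNA-binding protein (log2 difference 0.37), and TARDBP (0.15), with DAZAP1 (-0.37) and RUNX3 (-0.33) at the lower end. Whether the list differs from NEAT1 itself was not tested.

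Of the 28 genes of nuclear speckle proteins tested, limma called 1 (5 at an unadjusted p under 0.05). In this list 12 were higher and 16 lower at 24 h, and the median log2 difference was -0.01. The called gene was SRSF11, a serine- and arginine-rich splicing factor. It gave 14901 at 24 h, against 10228 in the high- and 10051 in the low-seeded 48 h culture (log2 difference 0.55, standard error 0.09, limma adjusted p = 0.0124). Without the trend of the variance on the mean in limma, this call was lost with all others. CLK1, a kinase of such factors, followed with 0.44, and SRSF5 (-0.46, limma adjusted p = 0.0579) and CCNL1 (-0.30) were lowest. The signal of CLK1 was 1218 at 24 h, against 694 in the high- and 1149 in the low-seeded 48 h culture. Its difference thus came mainly from the high-seeded culture. The 13 genes of RNase P and of tRNA 3′ end processing, some of which trim MALAT1, had a median of -0.09. Of these, 4 were higher and 9 lower, and limma called none (1 at an unadjusted p under 0.05). They ran from ELAC1 (0.57) and TRNT1 (0.23) to POP1 (-0.30) and RPP38 (-0.35).

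The 15 nonsense-mediated decay factors tested had a median of -0.04, with none called by limma (1 at an unadjusted p under 0.05), 6 higher and 9 lower. MAGOHB, a part of the exon junction complex, gave 0.53 and UPF1, the central helicase, 0.16, while NBAS (-0.17) and SMG5 (-0.21) were lowest. The signal of MAGOHB was 1166 at 24 h, against 957 in the high- and 669 in the low-seeded 48 h culture. Its log2 difference between the 48 h cultures was 0.50, near that of 24 h minus 48 h. Of the KCNQ1OT1 imprinted domain 6 genes were tested and none was called by limma (1 at an unadjusted p under 0.05). PHLDA2, an imprinted growth restrictor, gave 562 at 24 h, against 359.5 in the high- and 235 in the low-seeded 48 h culture (0.90, standard error 0.29, limma adjusted p = 0.278). CDKN1C gave 0.42, whereas OSBPL5 (-0.34) and TSSC4 (-0.46) were lowest. The signal of OSBPL5 was 130 at 24 h, against 232 in the high- and 125 in the low-seeded 48 h culture. Its difference thus came from the high-seeded culture.

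**Figure D4:**
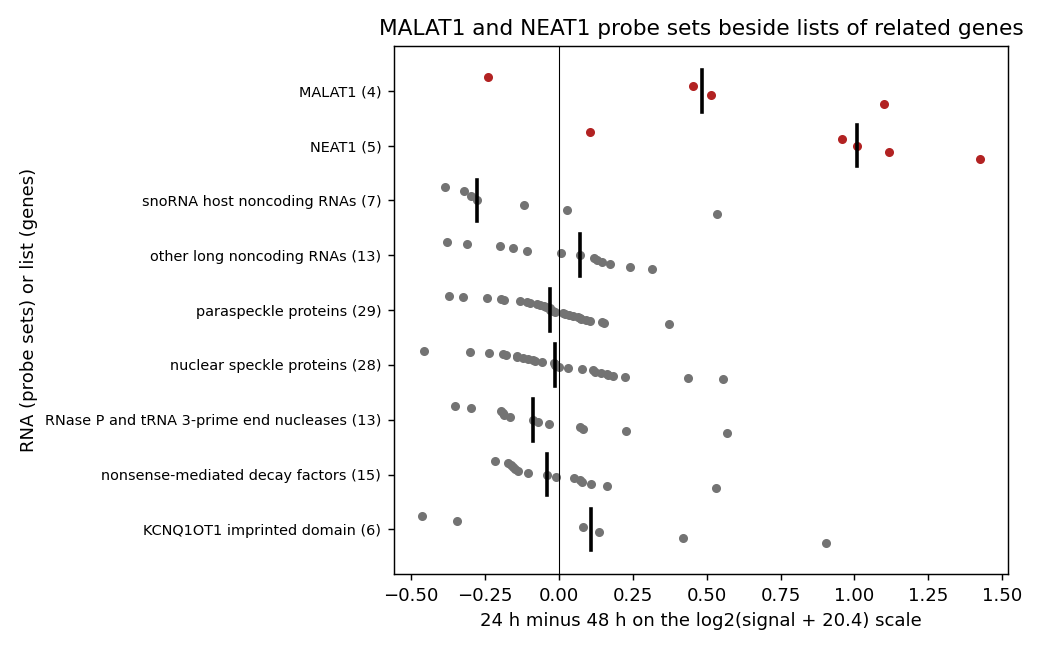
Difference of 24 h minus 48 h (horizontal axis, log2 scale) of the tested MALAT1 and NEAT1 probe sets (red) and of the tested genes of each list (grey, 1 probe set each); points are spread vertically for sight and black bars are medians. The list medians lie between -0.28 (small nucleolar RNA hosts, -0.05 with shared probe sets kept) and 0.11. Those of MALAT1 and NEAT1, at 0.48 and 1.01, are each over several probe sets of 1 RNA. The members were chosen with this contrast in view, so nothing is read from their place beside the lists.

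Of 13 other long noncoding RNAs tested, limma called none (1 at an unadjusted p under 0.05), 8 were higher and 5 lower, and the median log2 difference was 0.07. NORAD, an abundant RNA that binds Pumilio proteins, gave 8754 at 24 h, against 7823 in the high- and 8182 in the low-seeded 48 h culture (0.13). CRNDE was highest with 0.32 and HOTAIR, a transcript of the HOXC cluster, followed with 0.24, while TP53TG1 (-0.31) and FTX (-0.38) were lowest. HOTAIR gave 414 at 24 h, against 291 in the high- and 413 in the low-seeded 48 h culture. FTX gave 186 at 24 h, against 333 in the high- and 184 in the low-seeded 48 h culture. Both differences thus came mainly from the high-seeded culture.

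The small nucleolar RNA hosts other than GAS5 and SNHG1 had a median of -0.28 over the 7 genes with a tested probe set of their own, 2 higher and 5 lower at 24 h and none called by limma (4 at an unadjusted p under 0.05). DANCR gave 6221 at 24 h, against 8204 in the high- and 8044 in the low-seeded 48 h culture (-0.38, limma adjusted p = 0.110), and SNHG32 -0.32, whereas SNHG4 gave 0.53 and SNHG19 0.03. When probe sets shared with the hosted RNAs were kept, as for the members, 19 hosts were tested and the median was -0.05, with 8 higher, 11 lower and none called by limma (5 at an unadjusted p under 0.05). SNHG5 gave 19938 at 24 h, against 21958 in the high- and 20390 in the low-seeded 48 h culture (-0.09), SNHG6 12773, against 17125 in the high- and 15948 in the low-seeded 48 h culture (-0.37), and SNHG16 12605, against 13507 in the high- and 13192 in the low-seeded 48 h culture (-0.08). Over the 19 hosts the log2 difference ranged from -0.38 for DANCR to 0.53 for SNHG4, whose low-seeded signal of 81.2 was under its threshold. The next highest was SNHG8, with 0.22.

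The probe sets with the profile over the 3 arrays most like that of each member were found by the distance between mean-centred log2 signals, among 17885 to 17889 probe sets above background and listed for 1 gene. For MALAT1 1558678_s_at these were CBX3 1555920_at (384 at 24 h, 178 in the high- and 165 in the low-seeded 48 h culture, distance 0.07) and ABHD3 213017_at (2812 at 24 h, 1523 in the high- and 1244 in the low-seeded 48 h culture, distance 0.10). For NEAT1 224565_at they were MOSPD3 219070_s_at (365 at 24 h, 165 in the high- and 213 in the low-seeded 48 h culture) and ST6GALNAC4 221551_x_at (391.7 at 24 h, 178 in the high- and 231 in the low-seeded 48 h culture), both at 0.07. For GAS5 they were TRIM33 and ARF6, for TUG1 PPP4R2 and ACVR2A and for SNHG1 BCAP31 and DROSHA, all within 0.003 of the brightest probe set. Profiles with differences this small were common, although TUG1 222244_s_at had its 24 h signal above both others (log2 difference 0.26). Within a distance of 0.1 lay 2159 probe sets for GAS5, 1209 for TUG1 and 3300 for SNHG1, against 2 for MALAT1 and 8 for NEAT1. The genes named for GAS5, TUG1 and SNHG1 are thus a few of very many. With 3 arrays such likeness describes these libraries only.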

How the data were processed

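The authors hybridised biotin-labeled cRNA from total RNA of 3 cultures to Affymetrix U133 Plus 2.0 arrays and deposited MAS5 signals, an intensity on a linear scale (GCOS 1.0 in the submitters' processing notes), whose trimmed mean came to 500.1 on every array. Detection calls and probe sequences were not used here. No genome build is given in the sources used here. Symbols come from the platform annotation, updated by gene ID to GRCh38.p14 (41043 of 41097 probe sets listed for 1 gene). Where several genes are listed the probe set was left unnamed, except for the members and their hosted small RNAs. All probe sets were kept, controls included.

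Thresholds came from 383 reference probe sets (263 genes, with 155 probe sets for olfactory and bitter taste receptors), of which 9 were themselves above background. Signals were compared as log2(signal + 20.4), where 20.4 is the median of the reference signals, over 22134 probe sets whose mean log2 signal exceeded that of the mean threshold of 113. limma 3.58.1 (R 4.3.3) was fitted with a mean-variance trend to 24 h (1 array) against 48 h (2 arrays), with 1 residual degree of freedom and Benjamini-Hochberg adjustment over all tested, and called at 0.05. P-values and standard errors measure only the spread between the high-seeded and the low-seeded 48 h culture, pooled over probe sets of like signal. These cultures served as replicates although their seeding differed, so the spread holds that difference and may in part be technical. Having 3 arrays limits how precise any value can be. The fit was tested on simulated data with 100 changed probe sets. It recovered 92 of them at a log2 change of 1 and 100 at a change of 2, with 10 false calls each time. These counts are not split by signal, and standard errors of the dim members reached 0.47 (TUG1 230635_at). They therefore do not give the recovery for such probe sets.

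The members and lists were chosen with earlier results of these data known. Named were all members, called genes, the 2 highest and 2 lowest of each list (others such as NONO, SFPQ and NORAD were added as examples), neighbouring genes and the 2 nearest profiles. The alternatives changed the added value, the filter, the scaling (quantile or equal medians), the trend and the thresholds, or left out each array.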

Additional observations from a re-analysis of the deposited data

How the results depend on the processing

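The count of 17 member probe sets above background was 9 with the 99th percentile, 8 when only probe sets not marked _s_at or _x_at were counted (of 20) and 9 when only those listed for 1 gene were (of 24). It ran from 17 to 19 with an array left out and from 15 to 21 in the other settings. The 66 probe sets called between 24 h and 48 h became 9 with equal medians and 0 without the trend of limma, and the 2 members called became 1 and 0 in these settings and 4 without the filter on low signals, 3 of them of NEAT1. With equal medians the log2 difference of MALAT1 1558678_s_at was 1.15, against 1.10, while its call was lost. The median difference of the members above background was 0.26, ran from 0.23 to 0.29 with a 48 h array left out and was 0.64 over the 6 RNAs by their brightest probe sets, KCNQ1OT1 included, whose signals are under the thresholds. The median difference of the high-seeded minus the low-seeded culture was 0.04, and with equal medians -0.14. The median of the small nucleolar RNA hosts was -0.28, and with shared probe sets kept, a choice made after seeing the data, -0.048. The cause of these shifts was not tested. Counts of calls without a 48 h array could not be had, as no residual degrees of freedom are left. No paired analysis was possible because the 24 h group has 1 array and the labels give no replicate numbers. Signals near the thresholds limit what the 18 untested member probe sets can show.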
